A study of Mus musculus with 79 samples.

Results

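The endocannabinoid system genes described here are the CB1 receptor gene Cnr1, its partner Cnrip1, the synthesis genes Napepld, Dagla and Daglb and the degradation genes Faah, Mgll and Abhd6. They were chosen by name and matched to the gene identifiers of the count table, which gave 8 of 55471 genes, and each symbol matched 1 identifier. Bulk RNA sequencing covered the medial prefrontal cortex (mPFC) and the ventral hippocampus (vHipp) of 40 wild-type male CD-1 (ICR) mice that were not siblings. Their stated age is 9–10 weeks, and the age at dissection, after the procedures below, is not given. CSDS mice were exposed to chronic social defeat on each of 21 days, whereas CTRL mice were not defeated, and mice of both kinds were housed in social groups of 4. All mice then received 1 intraperitoneal injection of saline or (R,S)-ketamine (10 mg/kg) after 4 days in the social box, an arena for automated tracking, and stayed there for another 7 days. Each region had 4 groups of 10 mice (CTRL saline, CTRL ketamine, CSDS saline, CSDS ketamine), apart from 9 mPFC libraries of CSDS ketamine mice, because the mPFC of mouse 5 was not analysed here. Social rank and social group were not used here, so each group may mix ranks, and mice of 1 social group shared a cage.

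Endocannabinoids are lipids that a postsynaptic neuron releases on demand and that act back on the presynaptic terminal through the CB1 receptor, which lowers transmitter release. Anandamide is made through NAPE-PLD (Napepld) and broken down by fatty acid amide hydrolase (Faah). 2-arachidonoylglycerol (2-AG) is made by the diacylglycerol lipases (Dagla, Daglb) and broken down mainly by monoacylglycerol lipase (Mgll), with a part by Abhd6. In cortex and hippocampus, CB1 is known for its high level on terminals of cholecystokinin (CCK) interneurons, and the system is studied for its role in stress responses.

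Libraries held between 11726129 and 41767119 counts (median 19638060). Levels are given in CPM, counts scaled to the library size with TMM factors, and every member had at least 299 counts in every library. The tissue labels were checked with region genes. The cortical gene Tbr1 ranged from 107.7 to 221 CPM in the mPFC and from 30.3 to 62.7 CPM in the vHipp, and the dentate gyrus gene Prox1 from 14.5 to 33.7 CPM in the mPFC and from 48.7 to 282 CPM in the vHipp. The vHipp library of mouse 11, a CSDS ketamine mouse, stood apart from the others. Its root mean square distance from the median vHipp profile was 0.497 on the log2 scale, against a median of 0.256 over the vHipp libraries. It lay outside the range of the other 39 vHipp libraries for 7 of the 8 members, above it for Cnr1 and Mgll and below it for Faah, Dagla, Abhd6, Napepld and Cnrip1. It also had the highest sums of GABA neuron markers (1925 CPM, next highest 1641 CPM) and astrocyte markers (2899 CPM, next highest 1787 CPM). The mPFC library farthest from its region's profile (mouse 1, also CSDS ketamine) was at 0.364 against a median of 0.235, and was above all others for Faah, Mgll and Daglb. Several values below are given with and without these libraries.

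The 250 bases upstream of the RefSeq start are shown for Faah, Napepld, Cnrip1 and Daglb. Faah, Napepld and Cnrip1 moved together across vHipp libraries, and Daglb, like Mgll, had a region difference in the opposite direction. The windows lie at chr4:116017925-116018174 (minus strand) for Faah, chr5:21701623-21701872 (minus strand) for Napepld, chr11:17051609-17051858 (plus strand) for Cnrip1 and chr5:143464243-143464492 (plus strand) for Daglb in GRCm38.p6. They are written 5′ to 3′ in the direction of the gene. Capitals mark GGGCGG, the GC box bound by Sp1, or AGAACA, a half-site of the glucocorticoid receptor, each on either strand (CCGCCC and TGTTCT on the other).
Faah: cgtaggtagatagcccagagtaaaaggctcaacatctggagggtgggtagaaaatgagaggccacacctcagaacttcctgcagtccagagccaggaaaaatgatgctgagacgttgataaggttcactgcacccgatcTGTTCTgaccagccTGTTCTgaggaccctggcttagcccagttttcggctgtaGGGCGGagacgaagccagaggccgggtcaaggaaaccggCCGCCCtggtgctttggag
Napepld: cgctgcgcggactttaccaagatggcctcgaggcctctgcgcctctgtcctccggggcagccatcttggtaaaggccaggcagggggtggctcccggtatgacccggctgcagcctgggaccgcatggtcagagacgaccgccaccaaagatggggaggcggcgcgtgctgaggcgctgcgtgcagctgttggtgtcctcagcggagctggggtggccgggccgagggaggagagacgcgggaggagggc
Cnrip1: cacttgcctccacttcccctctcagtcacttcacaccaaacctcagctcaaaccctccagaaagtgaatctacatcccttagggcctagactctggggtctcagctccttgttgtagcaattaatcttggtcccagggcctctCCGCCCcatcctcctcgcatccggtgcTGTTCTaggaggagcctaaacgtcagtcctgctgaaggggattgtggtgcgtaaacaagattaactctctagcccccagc
Daglb: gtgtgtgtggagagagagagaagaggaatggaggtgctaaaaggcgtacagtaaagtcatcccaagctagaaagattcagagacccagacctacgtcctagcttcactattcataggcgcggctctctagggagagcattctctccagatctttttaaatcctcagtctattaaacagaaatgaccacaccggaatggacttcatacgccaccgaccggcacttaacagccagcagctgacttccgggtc
Faah held 2 GC boxes and 2 half-sites, Cnrip1 held 1 of each, and neither motif was found in these windows of Napepld and Daglb. Over 32851 promoter windows of the same length, 32.7% held the GC box and 16.1% the half-site. GC content was 55.6% for Faah, 69.6% for Napepld, 54.0% for Cnrip1 and 49.2% for Daglb, with a median of 52.4% over all windows. RefSeq windows, 11 in all, were found for 7 of the 8 members, and 5 held the GC box and 3 the half-site. Among members not shown, Mgll held 1 half-site in 1 window and 1 GC box in another. Abhd6, which had r = 0.66 with Cnrip1 across vHipp libraries, held 1 GC box in 1 window and none in another. Cnr1 held 5 GC boxes in 1 window. A relation of the motifs to the levels was not tested. The windows follow the RefSeq starts, which can differ from the gene starts in the count table.

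All 8 members differed between the regions: 6 were lower in the mPFC (Napepld, Dagla, Faah, Cnr1, Cnrip1 and Abhd6) and 2 were higher (Daglb and Mgll). The comparison asked how levels differ between the mPFC and the vHipp over all stress and treatment groups. Log2 fold changes (LFCs) are mPFC minus vHipp and come from edgeR's quasi-likelihood test, and p-values were adjusted by Benjamini-Hochberg over 31534 genes. With adjusted p below 0.05, 48.9% of all genes tested differed between the regions, 24.4% lower and 24.5% higher in the mPFC, so a call alone set no member apart from other genes. The median LFC of the 8 members was -0.52, against -0.00027 over all genes tested, and their median absolute LFC was 0.52 against 0.26. Bulk tissue cannot tell fewer cells of a type from less RNA per cell.

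**Figure D1:**
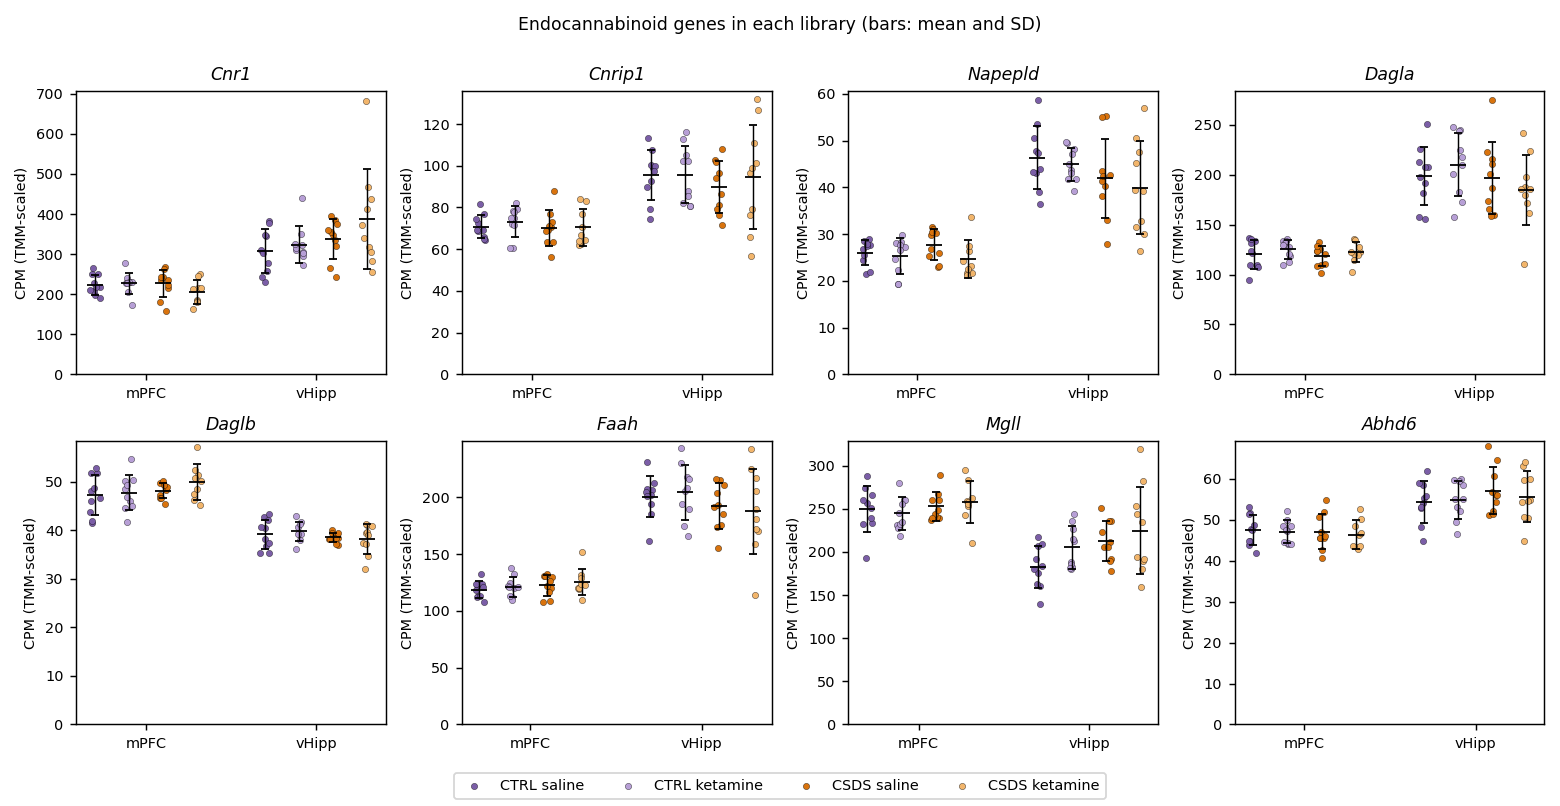
CPM of the 8 members (y axis, from 0) in each library of the mPFC and the vHipp (x axis), coloured by stress and treatment group, with the mean and SD of each group as bars. Faah, Dagla, Cnr1 and Napepld sit higher in the vHipp and Daglb sits lower, while the groups within a region overlap, and the point at 682 CPM for Cnr1 is the vHipp library of mouse 11.

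Cnr1, which encodes the CB1 receptor, ranged from 158 to 277 CPM in the mPFC (median 228) and from 230 to 682 CPM in the vHipp (median 324). The vHipp was higher in 39 of 39 mice with both regions, and 33 of 40 vHipp libraries lay above every mPFC library, although the ranges overlapped. The LFC was -0.63 (SE 0.055, adjusted p = 2.6e-17 in edgeR's quasi-likelihood test). Cnr1 was the member whose region difference varied most between groups, with mean differences by mouse from -0.85 in CSDS ketamine mice, which include mouse 11, to -0.45 in CTRL saline mice on the log2 scale. Cnrip1, whose product binds the tail of the CB1 receptor, ranged from 56.03 to 88.1 CPM in the mPFC (median 70.8) and from 56.8 to 132.2 CPM in the vHipp (median 96.6). Its regions overlapped more, and 24 of 40 vHipp libraries were above every mPFC library, with an LFC of -0.41 (SE 0.045, adjusted p = 4.8e-13 in edgeR's quasi-likelihood test).

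The synthesis genes did not share a direction. Napepld, the anandamide synthesis gene, ranged from 19.3 to 33.7 CPM in the mPFC (median 26.6) and from 26.3 to 58.7 CPM in the vHipp (median 43.2). It was lower in the mPFC in 37 of 39 mice, with an LFC of -0.74 (SE 0.051, adjusted p = 5.6e-23 in edgeR's quasi-likelihood test), and 34 of 40 vHipp libraries lay above the mPFC range. Dagla, the main neuronal 2-AG synthase, ranged from 94.4 to 136.8 CPM in the mPFC (median 123.04) and from 110.8 to 275 CPM in the vHipp (median 198). All 39 mice had the lower level in the mPFC, and the vHipp library of mouse 11 was the only one of 40 inside the mPFC range. Its LFC was -0.71 (SE 0.043, adjusted p = 1.0e-25 in edgeR's quasi-likelihood test).

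Daglb, the other diacylglycerol lipase, went the other way. It ranged from 41.6 to 57.1 CPM in the mPFC (median 48.5) and from 31.9 to 43.2 CPM in the vHipp (median 39.2), and was higher in the mPFC in 39 of 39 mice. Of 39 mPFC libraries, 36 lay above every vHipp library, with an LFC of 0.30 (SE 0.022, adjusted p = 1.0e-20 in edgeR's quasi-likelihood test). Daglb is uncertain as a measurement, since 2309 of its 9567 exon bases overlap exons of Rac1 on the other strand, and Rac1 had a mean of 5310 counts against 899 for Daglb. The libraries were stranded, but the strand setting of the counting is not given in the sources used here. Rac1, which encodes a small GTPase, had an LFC of -0.11 (adjusted p = 2.5e-08 in edgeR's quasi-likelihood test), in the direction opposite to Daglb. Across libraries, after subtracting group means, Daglb and Rac1 had r = -0.36 in the mPFC (n = 39) and -0.072 in the vHipp (n = 40). Exon overlaps on the other strand were smaller for Mgll (167 bases with Gm26588, which had 1.04% of the counts of Mgll) and Cnrip1 (199 bases with Plek, 15.6%).

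The degradation genes were split too. Faah, the anandamide hydrolase, ranged from 107.6 to 151.8 CPM in the mPFC (median 120.9) and from 114.2 to 243 CPM in the vHipp (median 202). As for Dagla, 39 of 40 vHipp libraries lay above the mPFC range and the exception was mouse 11. The LFC of Faah was -0.70 (SE 0.035, adjusted p = 1.1e-30 in edgeR's quasi-likelihood test), the smallest adjusted p among the members. Mgll, the main 2-AG hydrolase, ranged from 193 to 295 CPM in the mPFC (median 254) and from 139.5 to 320 CPM in the vHipp (median 199). It was higher in the mPFC in 35 of 39 mice, but no mPFC library lay above the vHipp range, since mouse 11 set its upper end, and the LFC was 0.28 (SE 0.042, adjusted p = 2.1e-08 in edgeR's quasi-likelihood test). By group, the mean log2 difference of Mgll by mouse ranged from 0.17 in CSDS ketamine mice, which include mouse 11, to 0.45 in CTRL saline mice. Abhd6, another 2-AG hydrolase found mostly in postsynaptic neurons, ranged from 40.6 to 54.8 CPM in the mPFC (median 46.7) and from 44.8 to 67.9 CPM in the vHipp (median 55.0). It had the smallest difference, with an LFC of -0.25 (SE 0.027, adjusted p = 1.9e-13 in edgeR's quasi-likelihood test), and was lower in the mPFC in 36 of 39 mice.

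**Figure D2:**
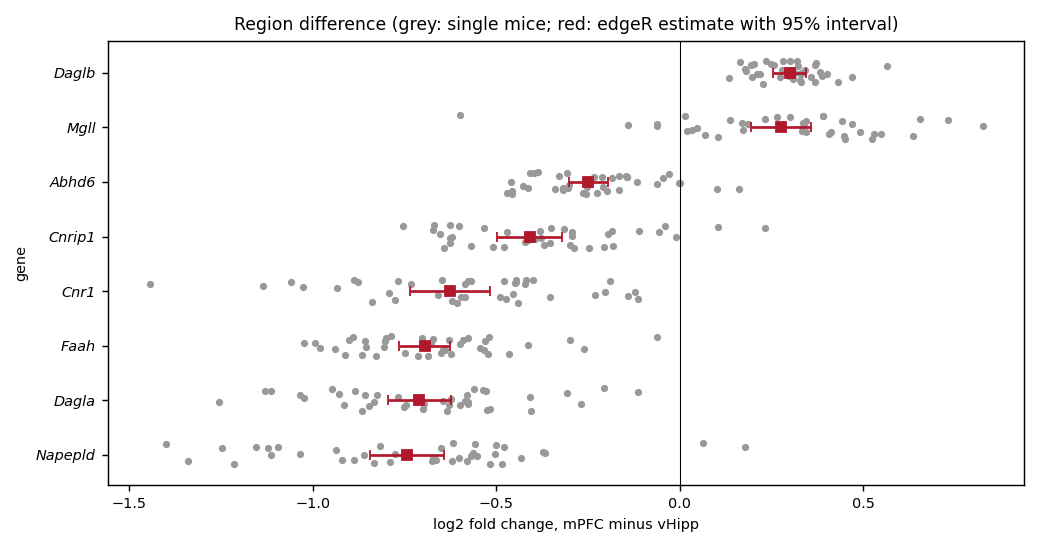
Log2 difference between mPFC and vHipp (x axis) for the 8 members (y axis), with 1 grey point for each of 39 mice and the edgeR estimate with its 95% confidence interval in red. The 6 members lower in the mPFC run from -0.74 for Napepld to -0.25 for Abhd6, and Mgll (0.28) and Daglb (0.30) lie on the other side of 0.

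Each region difference kept its direction within all 4 groups and within all 5 sets of mouse numbers. A set holds 4 CTRL and 4 CSDS mice with neighbouring numbers, and the labels do not call it a batch. By set, the mean log2 difference by mouse ranged from -0.78 to -0.62 for Faah, from -0.88 to -0.53 for Dagla, from -0.71 to -0.42 for Cnr1 and from -0.79 to -0.55 for Napepld. It ranged from 0.24 to 0.36 for Daglb and from 0.22 to 0.45 for Mgll. Cell type markers also differed between the regions. Of the 5 excitatory neuron markers 4 were lower and 1 higher in the mPFC, with a median sum of 6548.9 CPM there and 8016.5 CPM in the vHipp. Of the 6 GABA neuron markers 4 were lower and 1 higher in the mPFC, and of the 6 markers of CCK and VIP interneurons 4 were lower and 2 higher. The sum of the CCK and VIP markers went the other way from its count, with a median of 508 CPM in the mPFC and 399 CPM in the vHipp. No marker of the GABA, CCK and VIP, or excitatory lists was at 0 in any library, and the part of cell composition in the region differences was not tested.

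Levels of different genes were compared per kilobase of exon (CPM per kb, over all exons of the gene). In the mPFC the order was Mgll (median 49.98), Cnr1 (35.3), Dagla (21.4), Abhd6 (19.8), Cnrip1 (17.7), Faah (15.4), Napepld (6.72) and Daglb (5.07). Only the steps from Cnr1 to Dagla and from Faah to Napepld had ranges that did not overlap, while Dagla was above Abhd6 in 27 of 39 libraries. In the vHipp the order in CPM per kb was Cnr1 (50.3), Mgll (39.3), Dagla (34.4), Faah (25.7), Cnrip1 (24.1), Abhd6 (23.3), Napepld (10.9) and Daglb (4.09). There Cnr1 was above Mgll in 33 of 40 libraries, whereas Cnrip1 was above Abhd6 in only 19 of 40, and the ranges did not overlap from Abhd6 to Napepld and from Napepld to Daglb. The order depends on the length used, because the exons of Faah, Daglb and Cnrip1 together are 2.05, 2.06 and 2.42 times as long as the longest coding transcript of the gene in GENCODE. Per kilobase of that transcript, Cnrip1 had a median of 42.8 CPM per kb in the mPFC and 58.4 in the vHipp, against 39.2 and 55.8 for Cnr1 and 63.6 and 49.98 for Mgll.

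Within the regions, no member passed the test for stress, ketamine or their interaction. These comparisons asked whether CSDS and a ketamine dose given 7 days earlier were accompanied by a different level of the genes. Over 14 comparisons within a region and 2 between regions, edgeR's quasi-likelihood test called 0 of 8 members in each, and the smallest adjusted p of a member was 0.41. The test also called 0 of all genes in each of the 16 comparisons (0% called, with 28993 genes tested in the mPFC, 28991 in the vHipp and 31534 over both). At an unadjusted p under 0.05 there were between 823 and 2816 genes within a region. DESeq2 called 14 genes for stress over both treatments in the vHipp, and no member in any comparison. The comparisons share mice, so their values are not independent of each other. P-values measure the spread between mice, which includes library preparation. In the paper, whole social groups were either defeated or kept as controls, so stress differed between cages and not within them. The fits had no term for the social group and treated mice of the same cage as independent. The SEs, intervals and p-values of the stress comparisons can therefore be too small, which was not tested.

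In the vHipp, the stress estimates of 3 members had an unadjusted p under 0.05 with both treatments pooled, where 9.71% of all genes did. Without mouse 11 Mgll was the 1 member left, against 8.53% of all genes, and the 95% confidence intervals of Cnr1 (-0.011 to 0.28) and Napepld (-0.28 to 0.017) crossed 0. Cnr1 in the vHipp ranged from 230 to 384 CPM in CTRL saline mice (median 307), from 274 to 440 CPM in CTRL ketamine (median 313), from 242 to 396 CPM in CSDS saline (median 352) and from 254 to 682 CPM in CSDS ketamine (median 356). The 4 groups overlapped, and the LFC of stress was 0.20 (SE 0.087, adjusted p = 0.44, edgeR's quasi-likelihood test). Without the library of mouse 11 it was 0.13 (adjusted p = 0.62, edgeR), and the LFC among ketamine-treated mice, where 5.42% of all genes had an unadjusted p under 0.05 and Cnr1 was the 1 member that did, moved from 0.26 to 0.13 (adjusted p = 0.90 and 0.98, edgeR). For Mgll, the vHipp medians were 181 CPM (range 139.5 to 218) in CTRL saline, 201 CPM (180 to 244) in CTRL ketamine, 208 CPM (178 to 251) in CSDS saline and 214 CPM (160 to 320) in CSDS ketamine. The groups overlapped here as well, with an LFC of 0.18 (SE 0.070, adjusted p = 0.41, edgeR's quasi-likelihood test) and of 0.14 without mouse 11. Among saline-treated mice Mgll was the 1 member with an unadjusted p under 0.05, where 5.57% of all genes had one, with an LFC of 0.22 (SE 0.098, adjusted p = 0.87 in edgeR). Napepld had vHipp medians of 45.6 CPM (range 36.4 to 58.7), 44.4 CPM (39.3 to 49.6), 41.9 CPM (27.9 to 55.2) and 39.3 CPM (26.3 to 57.0) in the same order of groups. Its LFC of stress was -0.16 (SE 0.076, adjusted p = 0.51, edgeR's quasi-likelihood test), and -0.13 without mouse 11.

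In the same vHipp comparison no cell type marker passed the test, but several lists held markers with a low unadjusted p. All 5 microglia markers, 4 of 5 astrocyte markers, 3 of 4 endothelial markers and 4 of 6 markers of CCK and VIP interneurons had an unadjusted p under 0.05 (edgeR's quasi-likelihood test). Without mouse 11 these were 3 of 5, 2 of 5, 1 of 4 and 4 of 6. So had 3 of 7 hippocampal and 2 of 5 choroid plexus markers, with and without mouse 11. The choroid plexus list had a median stress LFC of 1.04, and its sum was 707 CPM in the vHipp of mouse 9 (CSDS saline), with the next library at 92.3 CPM and a median of 21.9 CPM. The sum of the CCK and VIP markers ranged from 326 to 449 CPM in CTRL saline, from 342 to 498 CPM in CTRL ketamine, from 355 to 433 CPM in CSDS saline and from 343 to 627 CPM in CSDS ketamine. The 627 CPM is mouse 11, and the next highest vHipp library had 498 CPM. Mouse 11 also had the highest vHipp sums of microglia markers (468 CPM, next 279 CPM) and endothelial markers (239 CPM, next 183 CPM), as of astrocyte markers. The LFCs of stress were positive for all 5 astrocyte markers (median 0.22). Their median sum was 1096 CPM in CTRL saline, 1171 CPM in CTRL ketamine, 1231 CPM in CSDS saline and 1054.3 CPM in CSDS ketamine mice, so the medians were higher with stress under saline and lower under ketamine. In the same order of groups, the median sums were 1184, 1209, 1247 and 1295 CPM for GABA neuron markers. For CCK and VIP markers they were 378, 386, 407 and 424 CPM. Of the 6 GABA neuron markers 2 had an unadjusted p under 0.05 for stress in edgeR, and 1 without mouse 11. The part of these markers in the values of Cnr1, Mgll and Napepld was not tested. The other vHipp members had stress LFCs between -0.10 (Dagla) and 0.045 (Abhd6), with Faah at -0.093, Cnrip1 at -0.053 and Daglb at -0.041. Without mouse 11, Dagla was at -0.070, Abhd6 at 0.061, Faah at -0.062, Cnrip1 at -0.022 and Daglb at -0.039.

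In the mPFC, the stress LFCs over both treatments lay between -0.059 for Cnr1 and 0.050 for Mgll, and the 95% confidence intervals of all 8 members lay between -0.18 and 0.15. None of them had an unadjusted p under 0.05. The mPFC medians of Cnr1 were 218 CPM in CTRL saline, 229 CPM in CTRL ketamine, 236 CPM in CSDS saline and 213 CPM in CSDS ketamine. Those of Mgll were 254, 240, 246 and 258 CPM in the same order, and the groups overlapped for both genes. The interval of Faah ran from -0.022 to 0.12, and from -0.037 to 0.098 without mouse 1.

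The stress effect of the mPFC minus that of the vHipp had an unadjusted p under 0.05 for 3 members, Cnr1 (-0.25, SE 0.11), Faah (0.15, SE 0.070) and Daglb (0.099, SE 0.045), where 6.86% of all genes did. Their adjusted p-values were 0.69, 0.71 and 0.70 in edgeR's quasi-likelihood test, so a difference between the regions was not shown for any of them. Without the libraries of mice 1 and 11 the values were -0.17, 0.11 and 0.089, and Daglb was the 1 member left with an unadjusted p under 0.05, where 6.34% of all genes had one. These fits held no term for the mouse, although the regions were paired by mouse. With the mouse as a block, the values were -0.23 (SE 0.077), 0.15 (SE 0.062) and 0.091 (SE 0.034). Their adjusted p-values were then 0.52, 0.57 and 0.54 in edgeR's quasi-likelihood test.

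Ketamine estimates over both stress groups were small in the mPFC, from -0.11 for Napepld to 0.045 for Dagla, and ranged in the vHipp from -0.054 for Napepld to 0.14 for Cnr1 and 0.13 for Mgll. All had an adjusted p of 1.00 in edgeR's quasi-likelihood test. Without mouse 11 the vHipp values were -0.029 for Napepld, 0.072 for Cnr1 and 0.091 for Mgll. The widest interval was that of Cnr1 in the vHipp, from -0.035 to 0.32 (-0.073 to 0.22 without mouse 11), and the one of Faah there ran from -0.12 to 0.12 (-0.076 to 0.13). The interaction of stress and ketamine reached -0.14 for Cnr1 in the mPFC and, in the vHipp, -0.18 for Dagla and 0.12 for Cnr1. Without mouse 11 these vHipp values were -0.12 and -0.015, while Mgll went from -0.089 to -0.16 and Cnrip1 from 0.066 to 0.12. No member had an unadjusted p under 0.05 in the interaction.

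**Figure D3:**
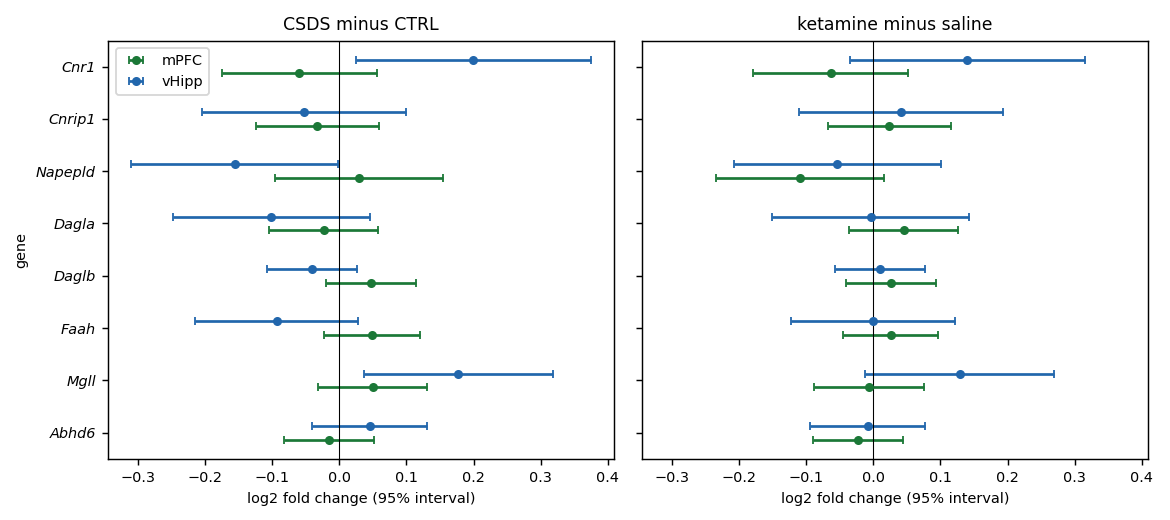
Log2 fold change with its 95% confidence interval (x axis) of the 8 members (y axis) for CSDS minus CTRL over both treatments (left) and ketamine minus saline over both stress groups (right), in the mPFC (green) and the vHipp (blue). In the left panel the vHipp intervals of Cnr1 (0.20), Mgll (0.18) and Napepld (-0.16) do not cross 0 before adjustment (without mouse 11, not plotted, those of Cnr1 and Napepld do), and the vHipp intervals are wider than the mPFC ones for 7 of 8 members in both panels, Daglb being the exception.

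The spread between mice, given as the biological coefficient of variation (BCV) after group differences, was higher in the vHipp than in the mPFC for 8 of 8 members. Over all genes of the member, pathway and marker lists it was higher in the vHipp for 74.3%. Cnr1 had 12.7% in the mPFC and 19.2% in the vHipp, Mgll 9.17% and 15.5%, Dagla 9.07% and 16.2%, and Faah 8.01% and 13.5%. Daglb was nearly the same in both regions (7.31% and 7.36%), and Abhd6 had 7.33% and 9.54%. Counting error at the median count was smaller than this, from 1.21% for Cnr1 in the vHipp to 4.46% for Napepld in the mPFC. The SD of log2 CPM within groups was higher in the vHipp for 7 of 8 members, with Daglb as the exception, both with all libraries and without mice 1 and 11.

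Levels of the same mouse in both regions were related for Daglb, Cnr1 and Cnrip1, as they were for many other genes. The test asked whether a mouse with a high level of a gene in the mPFC, relative to its group, also had a high level in the vHipp, over the 39 mice with both libraries. P-values came from two-sided permutation tests with 100000 resamples and were adjusted for r over 15177 genes. Of these genes 38.9% passed, nearly all with a positive r, and the median r was 0.30, so 3 of 8 members is close to the background. Daglb had r = 0.63 and rho = 0.68 (permutation p = 2.0e-05 for each, the smallest that the resamples can give, adjusted p = 0.00024 for r), and r = 0.63 without the 2 mice farthest from the median. An r at least as high was found for 9.42% of the genes. Cnr1 had r = 0.47 and rho = 0.56 (permutation p = 0.0019 and 0.00024, adjusted p = 0.0080 for r), a value reached by 25.7% of the genes, and r = 0.56 without the 2 farthest mice. Cnrip1 had r = 0.38 and rho = 0.38 (permutation p = 0.017 and 0.019, adjusted p = 0.045 for r), and 37.9% of the genes reached its r. The other members did not pass. Faah had r = 0.29, Dagla and Abhd6 0.21 each, Napepld -0.11 and Mgll -0.14, with adjusted permutation p-values between 0.14 and 0.62. The r of Mgll was reached by 96.5% of the genes and that of Napepld by 95.1%, which puts both near the low end.

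With the means of the sets subtracted as well, r was 0.54 for Daglb (adjusted permutation p = 0.0031), 0.51 for Cnrip1 (0.0053) and 0.30 for Cnr1 (0.15), where 29.5% of all genes passed, so r of Cnr1 did not pass within sets. For Cnr1, set 3 had the highest mean deviation in each region, at 0.16 in the mPFC and 0.26 in the vHipp on the log2 scale, while the lowest was set 1 in the mPFC (-0.20) and set 5 in the vHipp (-0.22). A difference between sets was not tested. Without mice 1 and 11, r was 0.61 for Daglb (adjusted permutation p = 0.0011), 0.40 for Cnr1 (0.052) and 0.35 for Cnrip1 (0.095), where 29.8% of all genes passed. The overlap of Daglb with Rac1 applies to both regions of a mouse.

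**Figure D4:**
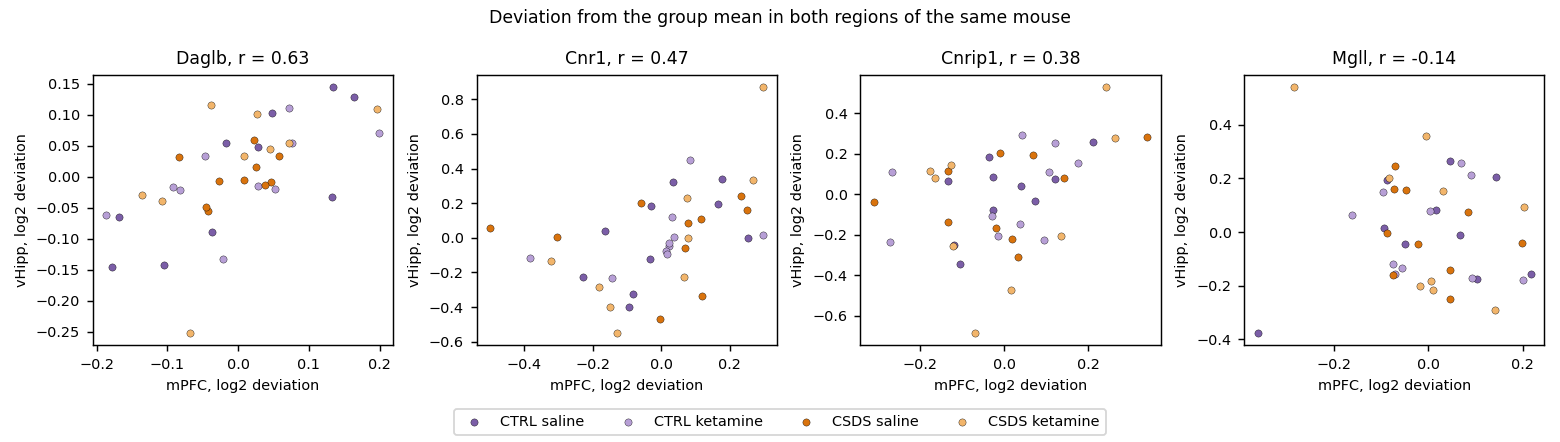
Deviation of log2 CPM from the group mean in the mPFC (x axis) and in the vHipp (y axis) of the same mouse for 4 members, with 1 point for each of 39 mice coloured by group. Daglb rises along the diagonal (r = 0.63), Cnr1 (0.47) and Cnrip1 (0.38) do so with more scatter, and Mgll does not (-0.14).

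Across the libraries of a region the members formed different groupings. The correlations are descriptions of group-centred values of libraries that share depth, dissection and cell composition. In the vHipp (n = 40), Faah and Dagla had r = 0.86, Faah and Napepld 0.77, Dagla and Napepld 0.74, and Faah and Cnrip1 0.73. Without mouse 11 these were 0.81, 0.74, 0.69 and 0.65. Cnr1 stood opposite to Faah (-0.48) and Dagla (-0.44), and Mgll opposite to Cnrip1 (-0.44), and without mouse 11 these were weaker (-0.27, -0.25 and -0.31). In the mPFC (n = 39), Faah and Dagla had r = 0.34 and Faah and Napepld 0.036, whereas Faah, Mgll and Daglb went together (0.55 to 0.57, and 0.50 to 0.51 without mouse 1). There Cnr1 was opposite to Mgll (-0.58), Daglb (-0.51) and Faah (-0.46).

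**Figure D5:**
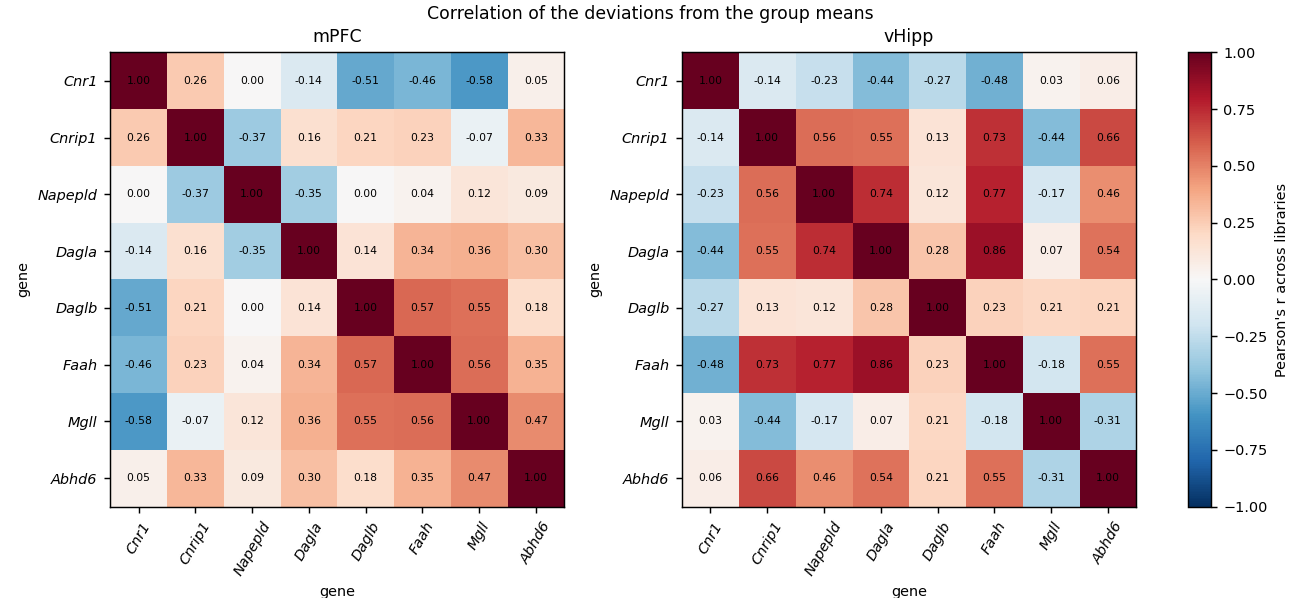
Pearson's r between the members (both axes) over 39 mPFC libraries (left) and 40 vHipp libraries (right), after subtracting group means, with red for positive and blue for negative values. In the vHipp, Faah, Dagla, Napepld, Cnrip1 and Abhd6 form a red block, with 0.86 for Faah and Dagla, and in the mPFC Cnr1 is blue against Mgll, Daglb and Faah.

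Members were also correlated with sums of cell type markers, and the values differed between the regions. In the vHipp, Faah had r = -0.80 with oligodendrocyte precursor markers, -0.78 with GABA neuron markers and -0.77 with astrocyte markers, and -0.73, -0.71 and -0.65 without mouse 11. Cnr1 had r = 0.68 with GABA neuron markers there, Mgll 0.74 with endothelial markers and Napepld -0.76 with oligodendrocyte precursor markers, and without mouse 11 these were 0.57, 0.67 and -0.72. In the mPFC the same pairs had r = -0.051, -0.22 and -0.0076 for Faah, -0.0060 for Cnr1, 0.49 for Mgll and 0.42 for Napepld. There, Mgll had r = 0.71 with excitatory neuron markers and Abhd6 0.66 with cortical markers (0.69 and 0.64 without mouse 1), against 0.61 and -0.32 in the vHipp. With the sum of the CCK and VIP markers, Cnr1 had r = 0.48 in the vHipp (0.26 without mouse 11) and -0.38 in the mPFC. In the mPFC, Cnr1 also had r = -0.31 with excitatory neuron markers. A sum over bulk tissue can hold RNA of other cells, so it does not stand for CCK and VIP interneurons alone. The part of cell composition or of the dissection in these relations was not tested.

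By the smaller r of the 2 regions among 15177 genes, Cnr1 was most like Zfp945 (r = 0.75 in the mPFC and 0.74 in the vHipp) and Rab27b (0.82 and 0.74). Faah was most like Mgat4b (0.77 and 0.79) and Ptov1 (0.75 and 0.75), and Mgll was most like Rnf10 (0.75 and 0.79) and Rasl10b (0.74 and 0.91). Dagla was nearest to Dnm1 (0.79 and 0.77) and Smarca4 (0.79 and 0.77), and Cnrip1 to Brk1 (0.76 and 0.77) and Prnp (0.81 and 0.75). Abhd6 came nearest to Rgs7 (0.67 and 0.77) and Pitpnb (0.66 and 0.66), and Napepld to Bhlhe22 (0.65 and 0.80) and Cyp7b1 (0.64 and 0.67). Daglb had the weakest likeness, to B4galt2 (0.62 and 0.53) and Mknk1 (0.53 and 0.53). Without the farthest library of each region, the smaller r of these pairs lay between 0.49 (Mknk1) and 0.76 (Rab27b). No member was among the 2 genes most like another member.

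All 38 other genes of the pathway passed the filter on counts in the fit of both regions, while Gpr119 failed it in the mPFC and Gpr18 in the vHipp. Each of these 2 passed in the region where it was higher, so the filter bears on their direction and they are left out of the counts. Of the other 36, 15 passed the test as lower and 9 as higher in the mPFC (edgeR, adjusted p below 0.05), with a median LFC of -0.030. Over all genes tested, 48.9% passed, 24.4% as lower and 24.5% as higher in the mPFC. The lists by role are short, so their counts below do not set a role apart from other genes. Among 7 drivers of 2-AG synthesis, such as the receptors that activate phospholipase C, 5 were lower and 2 higher in the mPFC. Of 8 other synthesis genes, 4 were lower and 3 higher. Ptpn22 (-0.94) and Gdpd3 (-0.81) were the furthest below, with regional means between 0.734 and 1.68 CPM, and Plcb4, a phospholipase C gene (1.03), and Pla2g4e, a calcium-dependent N-acyltransferase gene (0.68), the furthest above. Of 5 other degradation genes, 2 were lower and 1 higher, with the cyclooxygenase gene Ptgs2 at -0.85. Among 5 other receptors and targets, 2 passed the test, both as higher in the mPFC. Pparg, a nuclear receptor gene, had an LFC of 1.45 and means of 5.01 CPM in the mPFC and 1.82 CPM in the vHipp, whereas Gpr55 (1.01) was under 1 CPM in both regions. Gpr18 had an LFC of 1.48, with means of 0.0177 CPM in the mPFC and 0.0041 CPM in the vHipp. Of 7 genes of G proteins and effectors of CB1, 2 were lower, among them the potassium channel gene Kcnj6 (-0.76), and 1 was higher, and of 4 carriers and partners 2 were lower. In the other comparisons, 0 of 594 tests of the 38 genes passed (edgeR's quasi-likelihood test), with 27 at an unadjusted p under 0.05 and a smallest adjusted p of 0.40. This number of tests includes Gpr119 and Gpr18 wherever they passed the filter.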

How the data were processed

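The authors dissected the regions with a 1 mm punch, left out RNA with an integrity number below 8, and made Illumina Stranded mRNA libraries. The deposited values are raw read counts per gene on GRCm38, whole numbers without normalization or filter. Reads were converted with bcl2fastq 2.20.0.422 per the submitters' processing notes, and the aligner and counting program are not given in the sources used here. Groups came from the labels. Genes with more than 10 counts in total and detected in more than 3 libraries of the fit were tested with edgeR 4.0.16 in R 4.3.3 (TMM factors, quasi-likelihood test, no covariate, Benjamini-Hochberg threshold 0.05), with 1 fit per region and 1 fit of all 79 libraries for comparisons between regions. The models were tested on simulated data. Likeness and correlations used log2(CPM + 0.5) minus group means, and likeness took genes with a mean of at least 1 CPM in each region. Correlations between regions were tested by permutation (scipy 1.17.1), with adjustment over the same genes as likeness, an adjustment chosen after seeing the data. The mouse number pairs the regions, since both libraries come from 1 mouse. Deviations of the same mouse had a median r of 0.28 across 15177 genes, against -0.0023 between different mice. DESeq2 1.42.0, other normalizations and filters, the set, the groups compared only, and the mouse as a block were alternatives. The members and lists were chosen with earlier results of these data known. Named genes were the 8 members, the 5 pathway genes with the largest region difference in each direction among those with an adjusted p under 0.05, pathway genes that failed a filter, and the 2 genes most like each member. Rac1, Plek and Gm26588, which overlap members, and the tissue genes Tbr1 and Prox1 were named outside this rule, after values were seen. Some items are not reported here. At these depths, counting error was smaller than the spread between mice.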

Additional observations from a re-analysis of the deposited data

Results flagged for a closer look

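For each member and group, the highest and lowest library was compared with its nearest neighbour by Dixon's criterion. Of 64 sets of a member in a group, 3 had a library far from the others, and chance gives about 5% of such sets, or 3.2. Cnr1 in the vHipp of CSDS ketamine mice was at 682 CPM in mouse 11, with the next library at 469 CPM. Cnr1 in the vHipp of CTRL ketamine mice was at 440 CPM in mouse 32, with the next at 349 CPM. Napepld in the mPFC of CSDS ketamine mice was at 33.7 CPM in mouse 6, with the next at 27.5 CPM.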

How the results depend on the processing

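The region differences of all 8 members kept their direction and passed the threshold under each of 9 alternatives. LFCs ranged from -0.75 to -0.69 for Faah, from -0.72 to -0.70 for Dagla, from -0.63 to -0.45 for Cnr1 and from 0.27 to 0.46 for Mgll. With the mouse as a block, 8 members and 15437 genes were called, and the pairing changed no call of a member in the 3 comparisons between regions. Over saline-treated CTRL mice only, 8800 genes were called in place of 15415, from fewer libraries. Within the regions no member was called under any alternative, and the smallest adjusted p was 0.14 (Cnr1, stress over both treatments in the vHipp, DESeq2 with the set). DESeq2 called 14 genes in that comparison. With the set, DESeq2 called 77 there, 1 for stress with saline in the vHipp, and 2 each for stress with ketamine and stress over both treatments in the mPFC. The cause was not tested.

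Of 976 values of members under the alternatives, 29 changed sign, and none of them had a call. The largest of these shifts was the vHipp interaction of Cnr1, from 0.12 to -0.015 without mouse 11, and the other estimates that changed sign lay between -0.034 and 0.037 as reported. For Daglb under ketamine in CTRL mice (mPFC) these were 0.0034 (RLE), 0.0077 (no filter), 0.0042 (filterByExpr), 0.0019 (DESeq2), 0.0012 (DESeq2 with the set), 0.0044 (groups compared only) and 0.00034 (without mouse 1). For Dagla in the mPFC interaction they were -0.0015 (RLE), -0.012 (no filter), -0.0022 (filterByExpr), -0.0099 (set), -0.0016 (DESeq2), -0.019 (DESeq2 with the set) and -0.0023 (without mouse 1). Abhd6 in that interaction was -0.0040 with no filter. Cnrip1 for the ketamine effect between regions was 0.015 with the replicate block. Leaving out the farthest libraries (chosen after seeing the data) turned the mPFC values of ketamine in CSDS mice for Faah (-0.0057) and Cnrip1 (-0.026) and of the interaction for Faah (-0.023) and Abhd6 (-0.017). In the vHipp it turned Cnrip1 for stress with ketamine (0.040), Faah for ketamine in CSDS mice (0.025), the interaction for Cnr1 (-0.015) and Napepld (0.021), and ketamine over both stress groups for Faah (0.029), Dagla (0.026) and Abhd6 (0.0051). Between regions it turned Cnrip1 for stress (-0.013) and Faah for ketamine (-0.026).

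For the same-mouse relation, Cnr1 no longer passed with set means subtracted (r = 0.30) or without mice 1 and 11 (0.40) by r (rho was 0.37 and 0.51, with unadjusted permutation p = 0.022 and 0.0016), nor did Cnrip1 without those mice (0.35), and both of these settings were chosen after seeing the data. Without those mice, Faah (-0.036) and Mgll (0.00090) changed sign. Daglb passed under all of these alternatives. With p adjusted over the 8 members alone, in place of all genes, the calls did not change.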
